A study of Homo sapiens with 10 samples.

Results

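The sites lay at 10 human genes for tubulin, the protein that microtubules are built from: the alpha tubulin genes TUBA1A, TUBA1B, TUBA1C and TUBA4A, the beta tubulin genes TUBB, TUBB2A, TUBB3, TUBB4B and TUBB6, and the gamma tubulin gene TUBG1. A site was assigned to a gene when its midpoint fell in the RefSeq gene on GRCh38 or within 10 kb of either end, which gave 34 of the 52981 consensus sites of the study, from 1 site at TUBA1A to 6 sites at TUBB. Binding of the transcription factor ZEB1 was mapped by CUT&RUN, in which an antibody directs a nuclease to cut and release the DNA around a bound protein. The cells, named MDA in the labels, are a breast cancer line of human origin, negative for the oestrogen and progesterone receptors and for Her2. The 4 conditions were an untreated control, labelled MDA_Parental, and cells labelled MDA_ERI that had been in 300 nM eribulin for 24, 48 or 72 h, with 2 libraries each. The 2 IgG libraries of untreated cells were not analysed here, and these binding data carry no expression with which to check the receptor status.

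Alpha and beta tubulin pair into dimers that polymerise end to end and side by side into microtubules, and gamma tubulin, in a ring complex, templates the start of a new microtubule. Eribulin binds beta tubulin at growing microtubule ends and blocks growth, so the genes followed here encode its target and the partners of that target. ZEB1 is a zinc finger protein that binds E-boxes, mostly of the form CACCTG, and is known for repressing epithelial genes in mesenchymal carcinoma cells. TUBB is the main beta tubulin gene of most dividing cells, TUBB4B is broadly expressed and also serves cilia, and TUBB3 is a neuronal form that many tumours express and that has been associated with resistance to microtubule drugs.

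The start regions of 4 genes are shown as examples of starts whose ZEB1 signal was called higher than control, relative to the bulk of sites, at 24 h (TUBB4B, TUBA1A and TUBG1) or at 72 h (TUBA4A), with values below 0 under the other scaling described below. A start of TUBB6 at 24 h and the second start of TUBB3 at 72 h were called in the same way and are not printed. Each is the RefSeq window (GRCh38.p14) of 250 bases before to 50 bases after the annotated start, written on the strand of the gene, with matches to CACCTG or its reverse complement CAGGTG, and to CCAAT or its reverse complement ATTGG, in capitals. The windows are chr9:137241037-137241336, plus strand, for TUBB4B, chr12:49189031-49189330, minus strand, for TUBA1A, chr17:42609433-42609732, plus strand, for TUBG1, and chr2:219253869-219254168, minus strand, for TUBA4A.
TUBB4B: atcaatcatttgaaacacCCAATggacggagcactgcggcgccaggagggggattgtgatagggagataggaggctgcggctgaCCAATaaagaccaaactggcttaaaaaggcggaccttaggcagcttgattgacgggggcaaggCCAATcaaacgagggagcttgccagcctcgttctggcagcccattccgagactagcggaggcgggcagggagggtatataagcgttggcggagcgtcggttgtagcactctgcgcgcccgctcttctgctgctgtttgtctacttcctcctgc
TUBA1A: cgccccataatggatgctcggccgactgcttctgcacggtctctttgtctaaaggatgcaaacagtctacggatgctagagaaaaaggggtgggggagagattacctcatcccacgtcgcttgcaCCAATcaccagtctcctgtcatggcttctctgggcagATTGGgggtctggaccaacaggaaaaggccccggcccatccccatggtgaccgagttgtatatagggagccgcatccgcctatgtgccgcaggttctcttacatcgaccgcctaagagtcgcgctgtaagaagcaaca
TUBG1: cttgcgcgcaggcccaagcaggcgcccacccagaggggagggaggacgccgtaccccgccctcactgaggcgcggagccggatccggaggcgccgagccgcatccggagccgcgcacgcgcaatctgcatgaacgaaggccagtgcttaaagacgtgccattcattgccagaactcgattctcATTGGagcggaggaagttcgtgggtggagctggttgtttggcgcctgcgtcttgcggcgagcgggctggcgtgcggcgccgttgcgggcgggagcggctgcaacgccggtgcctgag
TUBA4A: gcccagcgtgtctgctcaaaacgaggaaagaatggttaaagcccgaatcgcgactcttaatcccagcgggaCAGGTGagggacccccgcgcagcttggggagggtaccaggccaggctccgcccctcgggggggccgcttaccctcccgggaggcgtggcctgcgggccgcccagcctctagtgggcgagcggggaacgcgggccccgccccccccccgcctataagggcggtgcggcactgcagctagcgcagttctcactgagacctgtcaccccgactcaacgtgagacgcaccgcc
CACCTG on either strand was found in 1 of the 15 RefSeq windows of the 10 genes, in that of TUBA4A, where CAGGTG begins at position -179 from the start. The same search matched 20.6% of all 35116 human windows of this length. CCAAT on either strand, a motif picked after these sequences had been read, was found in 9 of the 15 windows and in 34.6% of all windows. Some windows of a gene overlap, as at TUBA1C, and share a match; by gene, 7 of 10 held one. TUBB4B held 3 matches, TUBA1A held 2 and TUBG1 held 1, and 3 or more were found in 3.26% of all windows. These matches describe letters in the window and not bound positions.

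Libraries held between 1130706 and 3561455 counts in consensus sites, with both control libraries the deepest and both 72 h libraries the shallowest. Sampling noise exceeded the difference between the 2 libraries of a condition: chi-square over degrees of freedom, for which sampling alone gives about 1, was 0.830 for control, 0.886 for 24 h, 0.928 for 48 h and 0.951 for 72 h. They were therefore read as 1 sample per condition. The edgeR and DESeq2 tests nevertheless entered both libraries of a condition as replicates. Every p-value from these tests thus compares libraries and measures no spread between cultures. Signal is given as CPM, counts scaled to a common library size, after TMM scaling, pooled over both libraries, with exact 95% counting intervals in brackets for the sites described at length. A site was called when its Benjamini-Hochberg adjusted p in edgeR's quasi-likelihood test, over all 46436 tested sites, was under 0.05.

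Tubulin sites were mostly of ordinary strength. Their median signal was 15.0 CPM in control, 13.1 CPM at 24 h, 13.4 CPM at 48 h and 13.9 CPM at 72 h, and median widths were 252 bp in a range of 129 to 691 bp. Scaled per kb of width, the tubulin sites had a median percentile of 47.9 among all consensus sites in control. It was 41.4 at 24 h, 53.0 at 48 h and 65.6 at 72 h. Midpoints lay inside the tubulin gene for 14 sites and outside it for 20, and 9 of the 34 were nearer to an end of another gene than to one of the tubulin gene. Annotated starts were covered by 9 sites at 8 genes, the exceptions being TUBA1C and TUBB2A. The deposited peak lists held a control peak at 31 of the 34 sites, a 24 h peak at 22, a 48 h peak at 12 and a 72 h peak at 16, and the lists of later times come from shallower libraries. As shares, peaks were at 91.2% of the tubulin sites in control and at 64.7%, 35.3% and 47.1% at 24, 48 and 72 h. For all consensus sites the shares were 86.6%, 61.3%, 39.4% and 32.1%.

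Against control, 16 tubulin sites were called at 24 h, 9 lower and 7 higher, when 26.8% of all tested sites were called lower and 28% higher. At 48 h, 6 were called lower and 6 higher, against 16.9% and 16.8% of all sites. At 72 h, 3 were called lower and 9 higher, against 17% and 18.9% of all sites, and 8 of the 9 higher calls were at least 2-fold, a size that 12.2% of all sites reached in that direction, while 1 of the 3 lower calls was, against 8.55% of all sites. As shares, 26.5% of the tubulin sites were lower and 20.6% higher at 24 h, and 8.82% were lower and 26.5% higher at 72 h, so the counts at 24 h and 48 h stood near or under the background and those at 72 h above it for higher calls and under it for lower calls. No call against control was made at 11 of the 34 sites. The DESeq2 test called 6, 2 and 5 tubulin sites at 24, 48 and 72 h. At 24 h these were both TUBB4B sites, the TUBB sites at 5608 and 12167 bp, the TUBB3 site 3954 bp upstream and the TUBG1 site at 8997 bp. At 48 h they were the TUBA1C site at 46117 bp and the TUBB site at 10682 bp. At 72 h they were those 2, the TUBB site at 5608 bp, the TUBA4A start and the second TUBB3 start. With an assumed coefficient of variation of 0.2 between samples, 5 calls against control were left: the TUBB site 5608 bp downstream of its start (higher at 24 and 72 h), the TUBB site at 12167 bp and the TUBB4B site 4640 bp upstream (lower at 24 h), and the TUBA1C site at 46117 bp (higher at 72 h). Shares of all tested sites called by the DESeq2 test or with this assumed variation are not given here. The tubulin counts under both settings therefore cannot be set against a background. In the main test, lower calls numbered 4 at 24 h without replicate 2 of that time. At 48 h they numbered 3 without replicate 2 of control, 2 without replicate 1 of that time and 0 without its replicate 2, and at 72 h they numbered 1 without either library of that time.

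**Figure D1:**
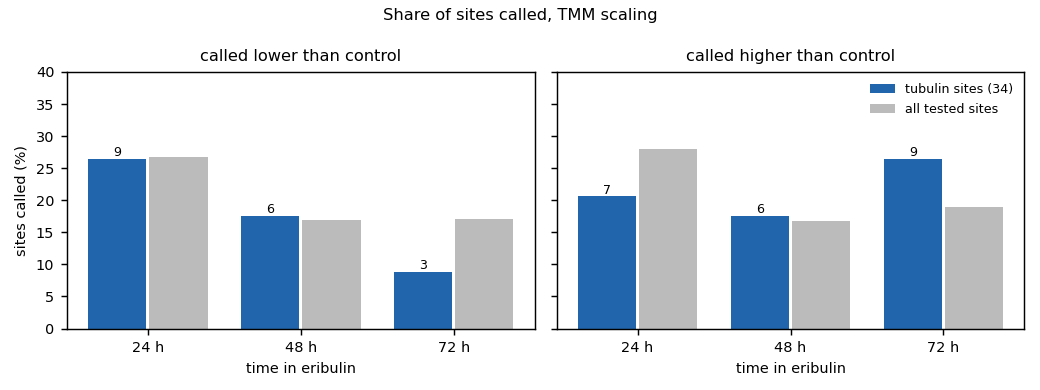
Percentage of sites called lower (left) or higher (right) than control on the TMM scale, at 24, 48 and 72 h, for the 34 tubulin sites (blue, with the number called above each bar) and for all 46436 tested sites (grey). Tubulin calls stand at 9, 6 and 3 lower and at 7, 6 and 9 higher, and with background floor scaling the higher calls become 1, 0 and 2. Floor scaling calls 2819, 1717 and 1108 of all tested sites higher.

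These directions depend on the scaling, because TMM assumes that most sites do not change. Libraries were scaled instead to a background level computed for each peak list from its fold enrichments and -log10 p values. That level was 0.598 in control and 0.646, 0.603 and 0.569 at 24, 48 and 72 h. The control libraries were the deepest and the 72 h libraries the shallowest. This scaling assumes that the computed level follows the background of the libraries, and neither assumption was tested. Under it the median of all tested sites shifted by -0.93, -1.42 and -1.50 on the log2 scale at 24, 48 and 72 h. Of the 34 tubulin sites, 25, 29 and 27 were called lower and 1, 0 and 2 higher. Of all 46436 tested sites, 30202, 38783 and 38513 were called lower and 2819, 1717 and 1108 higher. Fold changes below are therefore relative to the bulk of sites, and the value under this background floor scaling is given beside each called value whose sign it turns. Under it the median tubulin log2 fold change was -0.82, -1.43 and -1.20 at the 3 times, and the median of all sites was -0.91, -1.42 and -1.50. Under TMM the tubulin medians were 0.11, -0.02 and 0.30, and those of all sites 0.02, -0.01 and 0.00.

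**Figure D2:**
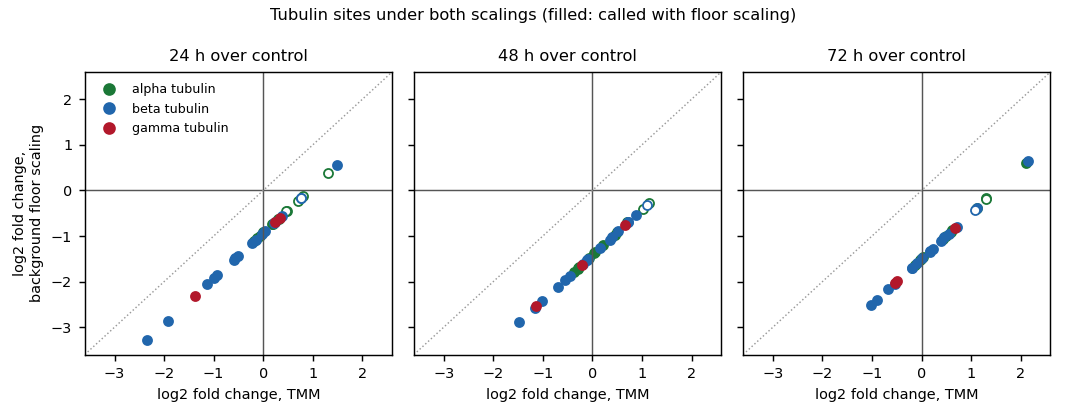
Log2 fold change over control of the 34 tubulin sites with TMM scaling (x axis) and with background floor scaling (y axis), 1 panel per time, coloured by tubulin class and filled where called with floor scaling. Points lie on a line below the dotted diagonal of equality, and only 1 site at 24 h and 2 at 72 h are called above 0 on the y axis.

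Among the alpha tubulin genes, which share 13 sites, no site was called lower than control at any time on the TMM scale, and 3, 2 and 5 sites were called higher at 24, 48 and 72 h. Those higher calls were 23.1%, 15.4% and 38.5% of the alpha sites, against 28%, 16.8% and 18.9% of all tested sites, and lower calls made up 26.8%, 16.9% and 17% of all tested sites. With floor scaling, 8, 10 and 8 of these 13 sites were called lower and 0, 0 and 1 higher. That scaling called 30202, 38783 and 38513 of all 46436 tested sites lower and 2819, 1717 and 1108 higher. Classes were set side by side after their values had been seen, and the difference between classes was not tested.

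TUBA1C, which encodes a widely expressed alpha tubulin, carried the clearest alpha change. A site of 402 bp at chr12:49273842-49274243, inside the gene and 558 bp from its downstream end, had 13.3 and 9.89 CPM in the control libraries, 12.3 and 14.5 CPM at 24 h, 22.4 and 29.5 CPM at 48 h and 47.6 and 53.7 CPM at 72 h. Libraries at 24 h overlapped those of control, and those at 48 and 72 h stood above both. Pooled signal was 50.5 CPM (41.6 to 60.8) at 72 h and 11.7 CPM (9.23 to 14.7) in control, a log2 fold change of 2.10 (95% counting interval 1.68 to 2.55, edgeR adjusted p = 1.25e-19). At 48 h the change was 1.14 (adjusted p = 2.77e-05), with -0.28 under floor scaling, and at 24 h it was 0.19 (adjusted p = 0.55), with -0.74 under floor scaling. The 72 h call stayed with floor scaling, at 0.60. No control peak was listed there, and a peak was listed at 24, 48 and 72 h.

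A further 2 TUBA1C sites were called with low counts. The site at chr12:49264571-49264716, 36718 bp downstream of the first start, had 4.32 CPM in control, 3.94 CPM at 24 h, 8.78 CPM at 48 h and 10.7 CPM at 72 h. Its log2 fold change at 72 h was 1.30 (adjusted p = 0.00619), which was not called without replicate 1 of the 72 h libraries and was -0.19 with floor scaling. At 48 h it was 1.01 (adjusted p = 0.0419), lost without either control library or replicate 2 of the 48 h libraries, and -0.40 with floor scaling. The site at chr12:49234504-49234680 had 2.31 CPM in control, 5.78 CPM at 24 h, 3.82 CPM at 48 h and 5.81 CPM at 72 h, with a change of 1.30 at 24 h (adjusted p = 0.0125) that was lost without replicate 1 of control or replicate 2 of the 24 h libraries. Its call at 72 h (1.31, and -0.17 with floor scaling) lay at the threshold and was lost in 7 of the 8 fits that each left out 1 library. The other 2 TUBA1C sites were not called in any comparison and ranged from 7.64 to 13.9 CPM. Of these, the site at chr12:49265476-49265685 lies 499 bp downstream of the same later start. Tubulin genes have near-identical copies in the genome, and how reads matching several copies were treated is not given in the sources used here, so that the split of counts between paralogs is uncertain.

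TUBA4A, an alpha tubulin found among other places in platelets and muscle, changed at its start and late. The site at chr2:219253682-219254328 covers the TUBA4A start, holds the whole window printed above with its CAGGTG, and also lies in TUBA4B. It had 15.9 and 13.5 CPM in the control libraries, 15.4 and 12.9 CPM at 24 h, 17.8 and 16.6 CPM at 48 h and 28.6 and 36.1 CPM at 72 h. Both 72 h libraries stood above the other 6. At 72 h the log2 fold change over control was 1.12 (0.66 to 1.58, adjusted p = 1.34e-05), and -0.38 with floor scaling. At 24 and 48 h it was -0.06 and 0.21, neither called on the TMM scale, and at 48 h floor scaling gave -1.20, which was called lower. The other 3 TUBA4A sites, between 5.24 and 12.2 CPM, were called in no comparison.

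TUBA1A, an alpha tubulin prominent in developing neurons, had a single site, at its start (chr12:49188924-49189279), and it was high only at 24 h. Libraries had 17.4 and 21.1 CPM in control, 32.3 and 29.6 CPM at 24 h, 13.9 and 22.7 CPM at 48 h and 14.7 and 23.1 CPM at 72 h, so that the 24 h pair stood above all the others. The log2 fold change at 24 h was 0.70 (0.32 to 1.07, adjusted p = 0.000605), which the DESeq2 test did not call and which was -0.24 with floor scaling.

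TUBA1B, a main alpha tubulin gene of dividing cells, had 2 sites at or near its start that were called in no comparison. The one over the start, at chr12:49131222-49131524, had 8.79 CPM in control, 9.99 CPM at 24 h, 7.26 CPM at 48 h and 8.94 CPM at 72 h. The next, at chr12:49130277-49130902, had 21.6 CPM in control, 26.8 CPM at 24 h, 17.6 CPM at 48 h and 19.7 CPM at 72 h. Another site, 6536 bp past the end of the gene at chr12:49121173-49121318, had 6.48 CPM in control, 11.3 CPM at 24 h, 9.16 CPM at 48 h and 13.9 CPM at 72 h, a log2 fold change at 72 h of 1.09 (adjusted p = 0.00744). That call was lost without replicate 1 of the 72 h libraries and the value was -0.40 with floor scaling. At 24 h the change was 0.80 (adjusted p = 0.0219), which was lost without replicate 1 of control or either 24 h library and was -0.13 with floor scaling.

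**Figure D3:**
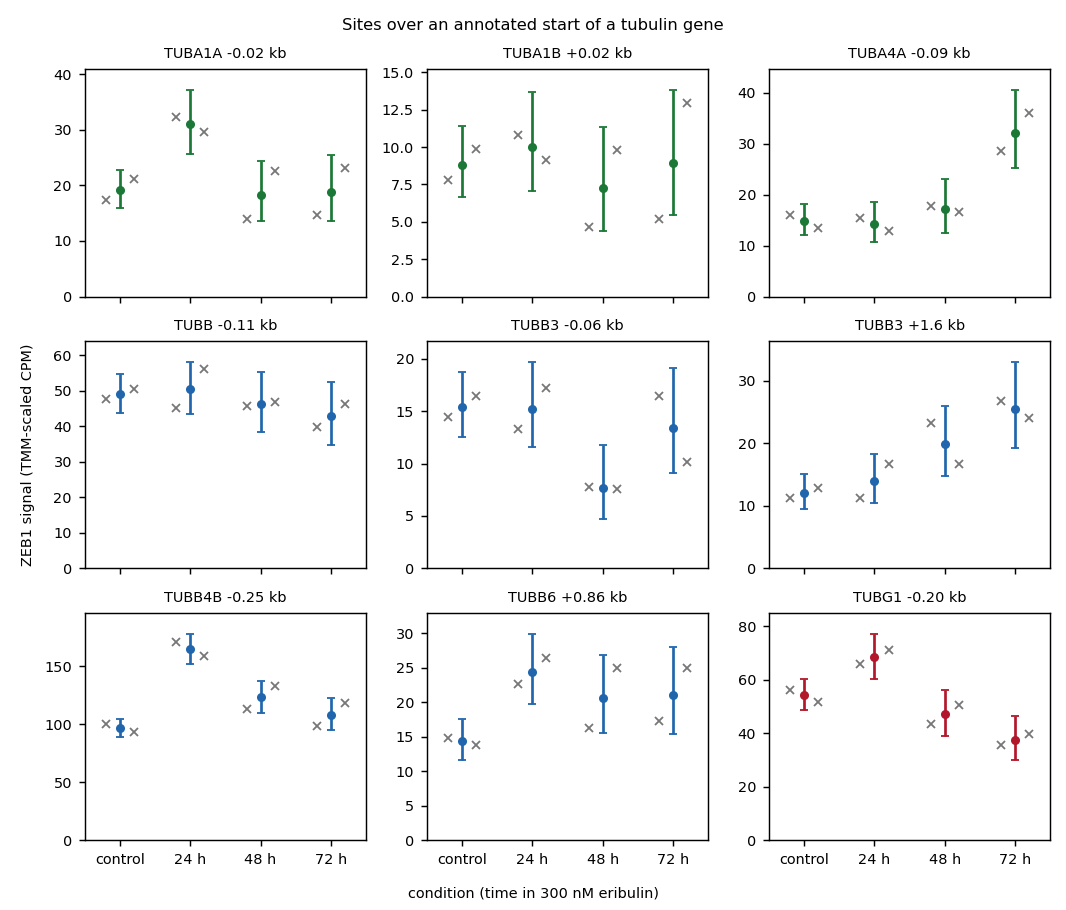
TMM-scaled CPM (y axis) at the 9 sites over an annotated tubulin start in control and at 24, 48 and 72 h in 300 nM eribulin (x axis). Filled points are pooled values with exact 95% counting intervals and crosses are the 2 libraries; titles give the midpoint from the first annotated start. TUBB4B, TUBA1A, TUBB6 and TUBG1 are highest at 24 h and TUBA4A at 72 h on this scale, and with floor scaling the called rises of these 5 sites over control turn negative.

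The 18 sites of the beta tubulin genes were called in both directions: 8, 5 and 2 lower and 3, 4 and 4 higher at 24, 48 and 72 h on the TMM scale. Lower calls were 44.4%, 27.8% and 11.1% of the beta sites, against 26.8%, 16.9% and 17% of all tested sites, and higher calls were 16.7%, 22.2% and 22.2%, against 28%, 16.8% and 18.9%. With floor scaling 14, 16 and 16 were lower and 1, 0 and 1 higher. Of all 46436 tested sites, 30202, 38783 and 38513 were lower and 2819, 1717 and 1108 higher under that scaling.

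TUBB4B carried the strongest site over a tubulin start. At chr9:137240758-137241319, a site of 562 bp that covers the TUBB4B start and 283 of the 300 bases printed above, signal was 99.9 and 93.0 CPM in control, 170 and 158 CPM at 24 h, 113 and 133 CPM at 48 h and 98.7 and 118 CPM at 72 h. The 24 h libraries were above all the others, and the 72 h libraries overlapped those of control. The log2 fold change was 0.77 at 24 h (0.60 to 0.93, adjusted p = 3.37e-19), 0.35 at 48 h (adjusted p = 0.00283, lost without replicate 2 of the 48 h libraries) and 0.16 at 72 h (adjusted p = 0.253). With floor scaling the values were -0.17, -1.08 and -1.34. Per kb, the site stood at percentile 99.7 of all consensus sites at 24 h and percentile 96.9 in control.

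A second TUBB4B site moved the other way at 24 h. It lies 4640 bp upstream of the start, at chr9:137236576-137236717, and 92 bp from the end of SLC34A3, which encodes a renal phosphate transporter. Libraries had 23.7 and 20.4 CPM in control, 5.13 and 6.47 CPM at 24 h, 32.4 and 26.4 CPM at 48 h and 24.2 and 27.8 CPM at 72 h. The 24 h pair stood below the other 6. At 24 h the log2 fold change over control was -1.93 (-2.66 to -1.29, adjusted p = 9.88e-11), and at 48 and 72 h it was 0.40 and 0.22, neither called on the TMM scale, with -1.02 and -1.28 under floor scaling. Signal at 72 h over that at 24 h was 2.15 higher on the log2 scale (adjusted p = 3.96e-09).

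TUBB had the most sites, and their courses differed from one another. Over the start, at chr6:30720079-30720401, signal was 49.0 CPM in control, 50.5 CPM at 24 h, 46.2 CPM at 48 h and 42.9 CPM at 72 h, with no call, and a log2 fold change at 72 h of -0.19 (-0.54 to 0.14). The strongest of all 34 sites, at chr6:30717123-30717813, lies 2884 bp upstream of TUBB, with its midpoint 187 bp from an end of MDC1, a DNA damage checkpoint gene that it overlaps. It had 197 CPM in control, 177 CPM at 24 h, 173 CPM at 48 h and 186 CPM at 72 h, and its calls at 24 h (-0.15, adjusted p = 0.0454) and 48 h (-0.19, adjusted p = 0.047) were each lost on leaving out any of several libraries, among them replicate 2 of control and either library of the treated condition.

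Just past the end of TUBB was the site with the highest 72 h fold change of the 34. At chr6:30725846-30726073, 538 bp beyond the gene and in no other annotated gene, signal was 8.11 and 5.94 CPM in control, 21.0 and 18.9 CPM at 24 h, 16.2 and 14.3 CPM at 48 h and 33.7 and 29.6 CPM at 72 h. All 6 libraries of treated cells stood above both control libraries. The log2 fold change was 1.49 at 24 h (0.95 to 2.05, adjusted p = 1.14e-07), 1.10 at 48 h (adjusted p = 0.00267, lost without replicate 1 of the 48 h libraries) and 2.15 at 72 h (1.61 to 2.73, adjusted p = 1.56e-13). With floor scaling it was 0.56, -0.32 and 0.65. No control or 48 h peak was listed there.

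Farther downstream, 2 sites within FLOT1, which encodes the membrane raft protein flotillin, were called lower at 24 h. At chr6:30730833-30731234 signal was 26.9 and 29.4 CPM in control, 20.5 and 16.7 CPM at 24 h, 48.7 and 54.4 CPM at 48 h and 58.8 and 63.9 CPM at 72 h, with no overlap between the 24 h pair, the control pair and the 4 later libraries. Its log2 fold change over control was -0.59 at 24 h (adjusted p = 0.00656, lost without replicate 2 of the 24 h libraries), 0.88 at 48 h (adjusted p = 1.98e-06) and 1.12 at 72 h (0.80 to 1.45, adjusted p = 5.44e-10), and the last 2 values were -0.55 and -0.38 with floor scaling. At chr6:30732433-30732604 signal was 13.6 and 19.5 CPM in control, 1.54 and 4.85 CPM at 24 h, 7.72 and 6.80 CPM at 48 h and 13.0 and 9.26 CPM at 72 h. The change at 24 h was -2.35 (-3.37 to -1.51, adjusted p = 6.64e-10), at 48 h -1.16 (adjusted p = 0.00199, lost without replicate 2 of control or of the 48 h libraries) and at 72 h -0.55 (adjusted p = 0.158). Both sites are assigned to TUBB by distance only, as they lie 3324 and 4810 bp from the nearest FLOT1 end. The remaining TUBB site, at chr6:30721409-30721553, lies inside the gene and 157 bp upstream of the second annotated start, in its promoter window. It had 21.0 CPM in control, 14.2 CPM at 24 h, 13.0 CPM at 48 h and 11.2 CPM at 72 h and was called lower each time. At 72 h the change was -0.90 (adjusted p = 0.0079), a call lost without replicate 2 of the 72 h libraries. Its calls at 24 h (-0.56, adjusted p = 0.0255) and 48 h (-0.69, adjusted p = 0.0297) were also lost without replicate 2 of control or either library of the treated condition, and the 48 h call without replicate 1 of control too.

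**Figure D4:**
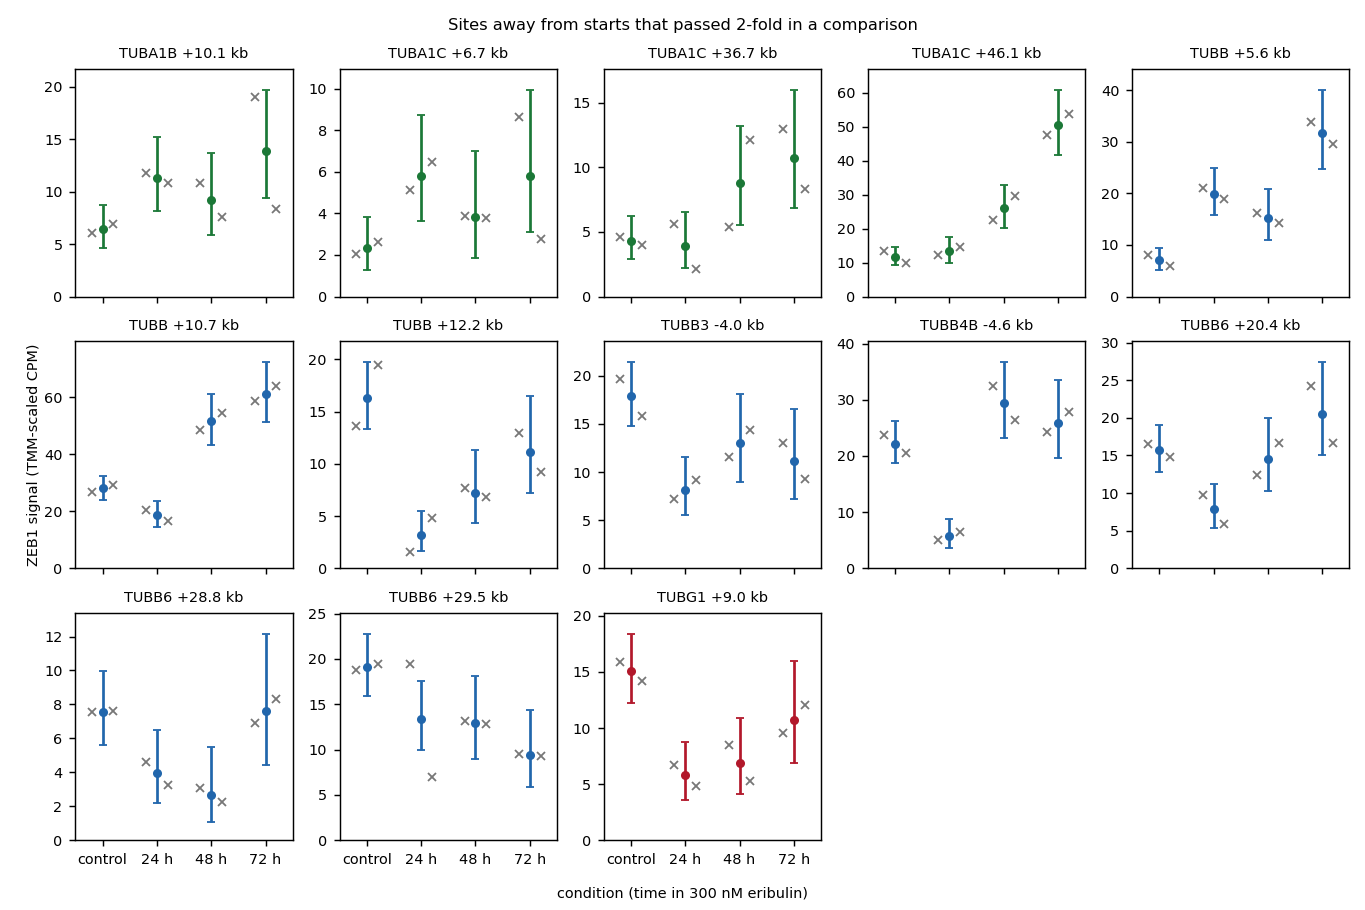
TMM-scaled CPM (y axis, from 0) in control and at 24, 48 and 72 h in 300 nM eribulin (x axis) at the 13 sites that cover no annotated start and passed 2-fold in at least 1 comparison. Filled points are pooled values with exact 95% counting intervals, crosses are the 2 libraries, and colour marks alpha (green), beta (blue) and gamma (red) tubulin. The site 5608 bp downstream of the TUBB start and that 46117 bp downstream of the TUBA1C start are called higher at 72 h under both scalings, while that 4640 bp upstream of TUBB4B is low at 24 h and, with floor scaling, below control at 24, 48 and 72 h.

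TUBB3 showed different courses at its 2 annotated starts. At the first (chr16:89921767-89921964) signal was 14.5 and 16.5 CPM in control, 13.3 and 17.2 CPM at 24 h, 7.72 and 7.55 CPM at 48 h and 16.4 and 10.2 CPM at 72 h. The 48 h pair was the lowest, at a log2 fold change of -1.01 (adjusted p = 0.00859) that was lost without either 48 h library. At the second (chr16:89923296-89923688) signal was 11.3 and 12.9 CPM in control, 11.3 and 16.7 CPM at 24 h, 23.2 and 16.6 CPM at 48 h and 26.8 and 24.1 CPM at 72 h. Here the 72 h pair was the highest, at 1.08 (0.56 to 1.59, adjusted p = 0.000208), with -0.42 under floor scaling. At 48 h the change was 0.72 (adjusted p = 0.0219, lost without replicate 1 of control or of the 48 h libraries), with -0.70 under floor scaling. The site 3954 bp upstream of the first start, at chr16:89917860-89918082 and 891 bp from the end of the melanocortin receptor gene MC1R, had 17.9 CPM in control, 8.15 CPM at 24 h, 13.0 CPM at 48 h and 11.2 CPM at 72 h, a change at 24 h of -1.13 (-1.76 to -0.55, adjusted p = 0.00012). The remaining TUBB3 site, between 12.9 and 17.0 CPM, was not called.

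TUBB6, a beta tubulin expressed outside the nervous system at low levels in many tissues, had its start site at chr18:12308207-12308861, over the second annotated start. Libraries had 14.8 and 13.9 CPM in control, 22.6 and 26.4 CPM at 24 h, 16.2 and 24.9 CPM at 48 h and 17.3 and 25.0 CPM at 72 h, so that every library of treated cells exceeded both controls. The change was called at 24 h (0.77, 0.34 to 1.20, adjusted p = 0.000921), though not by the DESeq2 test, and was 0.52 and 0.55 at 48 and 72 h, neither called on the TMM scale. With floor scaling the 3 values were -0.16, -0.90 and -0.95. The site inside the gene at chr18:12327971-12328218 had 15.7 CPM in control, 7.88 CPM at 24 h, 14.5 CPM at 48 h and 20.6 CPM at 72 h, a change of -0.99 at 24 h (adjusted p = 0.00128) that was lost without replicate 2 of the 24 h libraries.

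Another 2 TUBB6 sites lie in AFG3L2, a mitochondrial protease gene next to it. The site at chr18:12336430-12336558 had 7.56 CPM in control, 3.94 CPM at 24 h, 2.67 CPM at 48 h and 7.60 CPM at 72 h. Its changes at 24 h (-0.93, adjusted p = 0.0382) and 48 h (-1.48, adjusted p = 0.014) were each lost without either library of its treated condition and the one at 24 h also without either control library. At chr18:12337006-12337234, signal was 19.1 CPM in control, 13.4 CPM at 24 h, 13.0 CPM at 48 h and 9.39 CPM at 72 h, a change at 72 h of -1.02 (adjusted p = 0.00481) that was lost without either 72 h library. TUBB2A, a beta tubulin abundant in brain, had 6.48 CPM in control, 7.62 CPM at 24 h, 10.7 CPM at 48 h and 8.94 CPM at 72 h at chr6:3157565-3157702, 89 bp upstream of its start, with no call. Its site 5340 bp upstream, at chr6:3162654-3163115, had 15.6 CPM in control, 20.2 CPM at 24 h, 14.5 CPM at 48 h and 25.5 CPM at 72 h, a change at 72 h of 0.71 (adjusted p = 0.0139) that was lost without replicate 2 of control or replicate 2 of the 72 h libraries and was -0.79 with floor scaling.

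TUBG1, the main gamma tubulin gene, had a start site whose signal was above control at 24 h and below it at 72 h. At chr17:42609180-42609784, which covers the whole window printed above and also overlaps RETREG3, an endoplasmic reticulum turnover gene, libraries had 56.2 and 51.8 CPM in control, 65.7 and 71.1 CPM at 24 h, 43.3 and 50.6 CPM at 48 h and 35.5 and 39.8 CPM at 72 h. The 24 h pair stood above control and the 72 h pair below it, with no overlap. The log2 fold change over control was 0.34 at 24 h (0.10 to 0.57, adjusted p = 0.0105, lost without replicate 2 of control or replicate 2 of the 24 h libraries, and -0.60 with floor scaling) and -0.53 at 72 h (-0.89 to -0.18, adjusted p = 0.00749, lost without replicate 1 of the 72 h libraries). The DESeq2 test made neither of these calls. Set directly against 24 h, signal at 72 h was -0.86 on the log2 scale (-1.24 to -0.50, adjusted p = 8.97e-06). The site at chr17:42618544-42618816, 3442 bp past the end of TUBG1, had 15.9 and 14.2 CPM in control, 6.67 and 4.85 CPM at 24 h, 8.50 and 5.29 CPM at 48 h and 9.52 and 12.0 CPM at 72 h. It was called lower at 24 h (-1.38, -2.12 to -0.71, adjusted p = 3.53e-05) and at 48 h (-1.13, adjusted p = 0.004, lost without replicate 2 of the 48 h libraries). The remaining TUBG1 site, from 8.64 to 13.9 CPM, was not called.

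**Figure D5:**
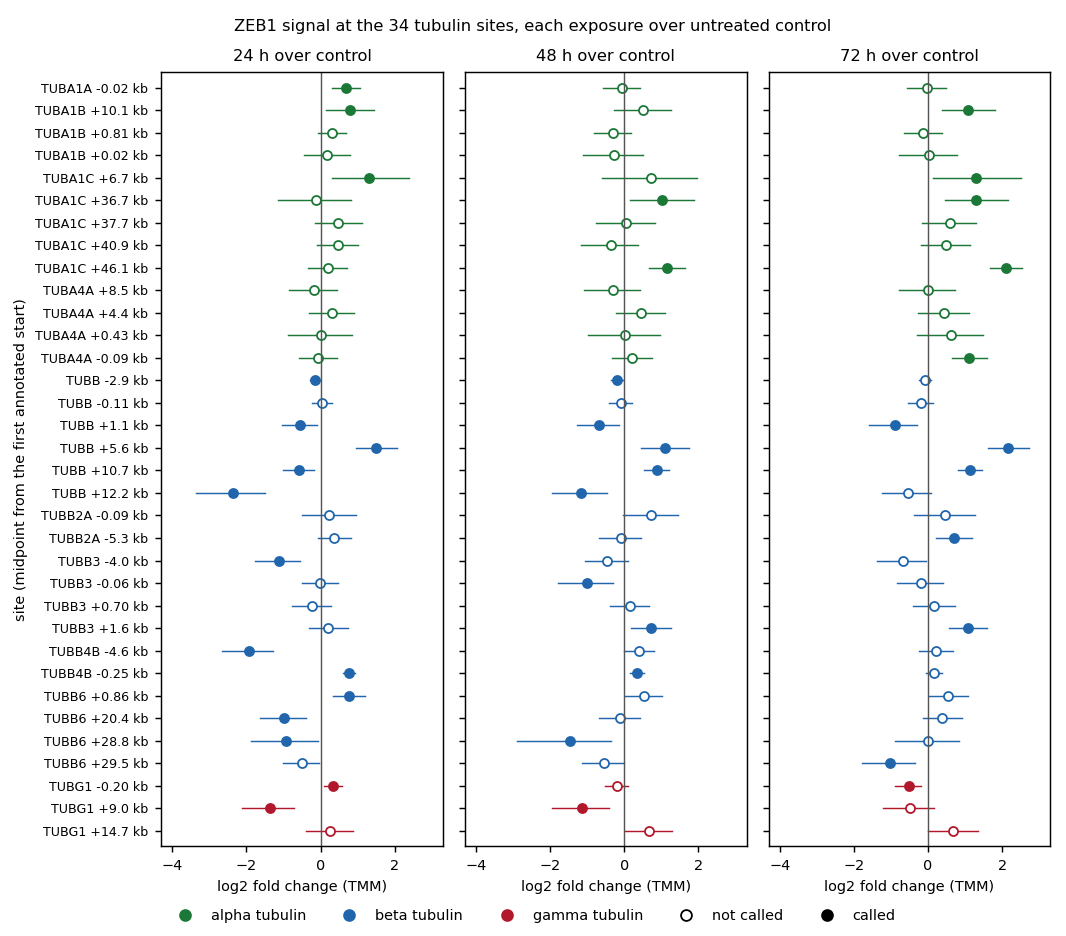
Log2 fold change over control (x axis, TMM scaling) of each of the 34 tubulin sites (rows, labelled by the midpoint from the first annotated start) at 24, 48 and 72 h. Lines are 95% counting intervals, colours the tubulin class, and filled points the called sites, of which 16, 12 and 12 are seen. With floor scaling 25, 29 and 27 of these sites are called lower, as are 30202, 38783 and 38513 of all 46436 tested sites.

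By position, 11 of the 34 sites overlapped a RefSeq promoter window, at 9 of the 10 genes. At 24 h, 1 of these was called lower and 4 higher, when 20.3% and 31.4% of all 8782 tested sites in promoter windows were. At 72 h, 2 were lower and 2 higher, against 11.6% and 15%. Of the 23 sites elsewhere, 8 were lower and 3 higher at 24 h, against 28.4% and 27.2% of all such sites, and 1 was lower and 7 higher at 72 h, against 18.3% and 19.8%. The 7 of 9 higher calls that lay outside promoter windows at 72 h compare with 23 of 34 sites there, and the split was not tested. Floor scaling left 2 higher calls at 72 h, both outside promoter windows.

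Compared directly, signal at 72 h was called higher than at 24 h at 9 tubulin sites and lower at 3, when 19.4% of all tested sites were higher and 16.4% lower. At least 2-fold, 7 were higher and 0 lower, against 12.1% and 9.26% of all sites. The 3 lower sites were the starts of TUBB4B (-0.60, adjusted p = 2.92e-07), TUBA1A (-0.72, adjusted p = 0.0144) and TUBG1, and the higher sites included the TUBA1C site near the gene's end (1.91, adjusted p = 2.9e-14), the nearer FLOT1 site (1.71, adjusted p = 4.56e-15) and the TUBA4A start (1.18, adjusted p = 5.43e-05). With floor scaling the counts were 6 higher and 10 lower, when 3545 of all 46436 tested sites were called higher and 20155 lower.

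Genes whose products make, modify or organise tubulin were set beside these from lists of related genes, against 26.8%, 16.9% and 17% lower calls and 28%, 16.8% and 18.9% higher calls over all tested sites at 24, 48 and 72 h. Among 13 further tubulin genes, 24 tested sites at 9 genes gave 12 lower and 0 higher calls at 24 h (50% and 0%). They gave 7 lower and 1 higher at 48 h (29.2% and 4.17%), and 6 lower and 1 higher at 72 h (25% and 4.17%). Of the 26 sites in that list, 4 are also sites of the members. The higher call at 72 h is such a shared site, the TUBA4A start, which also lies in TUBA4B. TUBD1, the delta tubulin of centrioles, led the lower calls at each time, at chr17:59853311-59853859, with 197 CPM in control, 84.1 CPM at 24 h, 102 CPM at 48 h and 130 CPM at 72 h. Its log2 fold changes were -1.23, -0.96 and -0.60 (adjusted p = 1.52e-40, 8.17e-24 and 5.82e-10). The higher call at 48 h with the lowest p was at TUBAL3, an alpha tubulin-like gene, with 8.02 CPM at 48 h and 1.70 CPM in control (2.20, adjusted p = 0.000127).

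Chaperones and cofactors that fold tubulin, with 53 tested sites, had 12 lower and 14 higher calls at 24 h (22.6% and 26.4%), 8 lower and 9 higher at 48 h (15.1% and 17%), and 9 lower and 11 higher at 72 h (17% and 20.8%). At 24 h the calls with the lowest p were at the prefoldin gene PFDN6 (-1.62) and the cofactor gene TBCA, with 19.97 CPM at 24 h and 3.08 CPM in control (2.67, and 1.75 with floor scaling). At 48 h they were at the prefoldin gene PFDN1 (-0.70) and the cofactor gene TBCE (0.89, and -0.54 with floor scaling). At 72 h they were at the chaperonin gene TCP1 (-1.44) and again TBCE, which had 237 CPM at 72 h and 97.1 CPM in control at chr1:235367192-235367805 (1.28, adjusted p = 2.41e-40, and -0.22 with floor scaling).

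Enzymes that modify tubulin, with 58 tested sites, had 18 lower and 11 higher calls at 24 h (31% and 19%), 14 lower and 2 higher at 48 h (24.1% and 3.45%), and 15 lower and 5 higher at 72 h (25.9% and 8.62%). The leading lower site at 24 h lay at the polyglutamylase gene TTLL5, at chr14:75660728-75661492, with 90.9 CPM at 24 h and 186 CPM in control (-1.03, adjusted p = 5.57e-31). The leading higher site at 24 h lay at another polyglutamylase gene, TTLL11 (1.81), and a different TTLL11 site led the lower calls at 48 h (-0.69) and 72 h (-0.83). Leading higher calls were at the tubulin acetyltransferase gene ATAT1 at 48 h (0.49, and -0.93 with floor scaling) and the glycylase gene TTLL3 at 72 h (0.98, and -0.51 with floor scaling).

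The gamma tubulin ring complex and its recruiters, with 51 tested sites, had 11 lower and 14 higher calls at 24 h (21.6% and 27.5%), 5 lower and 12 higher at 48 h (9.8% and 23.5%), and 4 lower and 12 higher at 72 h (7.84% and 23.5%). The ring subunit gene TUBGCP2 led the lower calls at chr10:133293292-133294002, with 85.0 CPM in control, 39.4 CPM at 24 h, 50.4 CPM at 48 h and 54.1 CPM at 72 h (-1.11, -0.75 and -0.65). Higher calls were led at 24 h by HAUS6, of the augmin complex (1.17), and later by TUBGCP3, another ring subunit, at chr13:112539843-112540657. TUBGCP3 had 68.0 CPM at 48 h and 8.48 CPM in control (2.99, adjusted p = 3.67e-39, and 1.57 with floor scaling), and its log2 fold change at 72 h was 2.16 (0.66 with floor scaling). On the TMM scale, the median log2 fold change at 72 h was 0.30 for the 34 tubulin sites and 0.00 for all tested sites. It was -0.35 for the further tubulin genes, shared sites included, 0.04 for folding factors, -0.09 for modifying enzymes and 0.11 for the ring complex.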

How the data were processed

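Occupancy of ZEB1 was measured in 8 CUT&RUN libraries, 2 for each of 4 conditions. Per the submitters' processing notes, reads were handled with hg38 and with these tools, whose roles are not stated: MACS2 2.1.1, Bowtie2 2.2.6, bedtools 2.30.0, deepTools, featureCounts, Picard, cutadapt 2.4 and bcl2fastq 2.20.0.422. Some labels speak of Tn5 fragmentation, which is no step of CUT&RUN. The authors deposited whole-number counts per consensus site, without normalization, and the sources used here do not state if these are reads or fragments. Their deposited peak lists, 1 per condition, hold a fold enrichment (a ratio) and a -log10 p value from the peak caller.

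A robust quasi-likelihood test in edgeR 4.0.16 (R 4.3.3) was fitted to the counts of all 8 libraries, after filterByExpr and with TMM factors, with Benjamini-Hochberg adjustment over 46436 tested sites. The fit's common biological coefficient of variation was 0.00988, and intervals cover only counting error. The background floor was solved from the fold and -log10 p of each peak, and the commonest solved value was taken for each list. It was held by 2089 of 41843 control peaks, 1455 of 32806 at 24 h, 782 of 21475 at 48 h and 353 of 17686 at 72 h. Only in the 72 h list did solved values lie far below the floor, down to 0.0372 against 0.569. Replicate 1 was given the floor of its list, and replicate 2 followed from the ratio of their site counts. Replicate numbers were not used to pair libraries in the main fit. Deviations of same-numbered libraries correlated between -0.00461 and 0.0139. That cannot decide on pairing, because the 2 libraries of a condition differed by no more than counting noise. The fit was tested on simulated data. Alternatives were DESeq2 1.42.0, an assumed coefficient of variation of 0.2, other scalings, no filter, a 2 kb window, a replicate block and leaving out each library.

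The members and lists were chosen with earlier results of these data known. Values in every condition are printed for the strongest site of each gene, the site nearest its start and any site called at 2-fold or more; related genes are named where their site has the lowest p of its list in a direction in a comparison with control. Exons, introns and protein sequences were not analysed here.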

Additional observations from a re-analysis of the deposited data

Results flagged for a closer look

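At 12 of the 34 tubulin sites, signal in the 72 h libraries differed from that in the 24 h libraries. The test was edgeR's quasi-likelihood test of 72 h over 24 h with Benjamini-Hochberg adjustment. It compares libraries of 1 sample per condition and measures no spread between cultures. It therefore cannot tell an effect of time in eribulin from a difference between cultures. The 12 sites are 35.3% of the tubulin sites, and 35.8% of all tested sites were called in this comparison, so the number stood at the background. The difference is given as a log2 fold change. It was negative at the starts of TUBA1A (-0.72), TUBB4B (-0.60) and TUBG1 (-0.86). It was positive at the TUBA4A start (1.18), the second TUBB3 start (0.87), the TUBB4B site 4640 bp upstream (2.15), the TUBB6 site inside the gene (1.38), the TUBA1C sites 36718 bp (1.43) and 46117 bp (1.91) downstream of the start, and the TUBB sites 5608 bp (0.67), 10682 bp (1.71) and 12167 bp (1.80) downstream. The calls at TUBA1A, the second TUBB3 start and the TUBB site at 12167 bp were lost without replicate 1 of the 24 h or of the 72 h libraries. Those at TUBA1C at 36718 bp and TUBB at 5608 bp were lost without replicate 2 of the 24 h or replicate 1 of the 72 h libraries, and that at TUBB6 without replicate 1 of the 72 h libraries. With background floor scaling, the calls at the second TUBB3 start, TUBA1C at 36718 bp and TUBB at 5608 bp were also lost. Under the assumed coefficient of variation between samples, 3 of the 12 calls were kept. These were at TUBA1C at 46117 bp, TUBB at 10682 bp and the TUBB4B site 4640 bp upstream.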

How the results depend on the processing

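Counts of called tubulin sites, lower then higher, were 9 and 7 (24 h), 6 and 6 (48 h), 3 and 9 (72 h), and 3 and 9 (72 h over 24 h). The DESeq2 test gave 4 and 2, 0 and 2, and 0 and 5 against control. An assumed coefficient of variation of 0.2, in place of the spread between these libraries, gave 2 and 1, 0 and 0, 0 and 2, and 0 and 3 for 72 h over 24 h. Shares of all tested sites called under these settings are not given here. Background floor scaling gave 25 and 1, 29 and 0, 27 and 2, and 10 lower for 72 h over 24 h. In the same comparisons it called 30202, 38783, 38513 and 20155 of all 46436 tested sites lower. A window of 2 kb in place of 10 kb left 2 lower sites at 24 h and 2 at 48 h. With the replicate number as a block, the counts were 9 and 7, 6 and 6, 3 and 8, and 3 and 9. In that fit 51 of 52 calls were kept. By the labels, same-numbered libraries share only the number. Leaving out 1 library gave 4 to 10 lower and 5 to 7 higher (24 h), 0 to 6 and 4 to 6 (48 h), 1 to 4 and 6 to 8 (72 h), and 2 to 4 and 4 to 9 (72 h over 24 h). The lower calls numbered 4 without replicate 2 of the 24 h libraries, 3 without replicate 2 of control, 2 without replicate 1 and 0 without replicate 2 of the 48 h libraries, and 1 without either 72 h library, and the higher calls for 72 h over 24 h numbered 4 without replicate 1 of the 72 h libraries. Of the 52 calls, 21 were kept in every leave-one-out fit, 21 by the DESeq2 test, 8 with the assumed variation and 30 with floor scaling. The cause of these changes was not tested.

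Floor scaling turned the sign of the log2 fold change at 17, 17 and 20 of the 34 sites at 24, 48 and 72 h over control and at 12 for 72 h over 24 h, of which 14, 15, 20 and 1 were called under at least 1 of the scalings. Among those, the sites whose values the report gives had these values under floor scaling. At 24 h over control they were TUBA1A (-0.24), TUBA1B (-0.13, -0.62 and -0.75), TUBA1C (-0.74), TUBB (-0.89), TUBB2A (-0.55), TUBB3 (-0.72), TUBB4B (-0.17), TUBB6 (-0.16) and TUBG1 (-0.60). At 48 h they were TUBA1B (-0.92), TUBA1C (-0.40 and -0.28), TUBA4A (-1.20), TUBB (-0.32 and -0.55), TUBB3 (-0.70), TUBB4B (-1.02 and -1.08) and TUBB6 (-0.90). At 72 h they were TUBA1B (-0.40 and -1.47), TUBA1C (-0.17 and -0.19), TUBA4A (-0.38), TUBB (-0.38), TUBB2A (-1.03 and -0.79), TUBB3 (-0.42), TUBB4B (-1.28 and -1.34) and TUBB6 (-0.95, -1.11 and -1.48). For 72 h over 24 h, TUBB (-0.50) was the only one called. Floor scaling shifted the median log2 fold change of all tested sites by -0.93, -1.42 and -1.50 over control and by -0.57 for 72 h over 24 h. The share of all tested sites whose sign turned is not given here, so these counts cannot be read as particular to tubulin sites. Sites with few counts limit what could be seen, since the median tubulin site had 31 pooled counts at 72 h and 97 in control.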
